A study of Mus musculus with 16 samples.

Results

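Cholesterol and fatty acid synthesis genes were followed in ILC2s, the group 2 innate lymphoid cells that live in tissues and release type 2 cytokines. The set was a list of 32 genes named for their place in the pathways and drawn up with earlier results of these data known, and 29 of the 32 were measured among the 22180 genes tested. They comprised 5 enzymes of the mevalonate steps, 3 of the steps to lanosterol, 8 of the steps to cholesterol, 6 genes that sense or carry sterols, 3 of fatty acid synthesis and 4 that elongate or desaturate fatty acids. Idi1 and Scd2 were covered only by probe sets with several gene symbols, and Acat2 was not analysed here. The study hybridised total RNA of mouse ILC2s to 16 single-colour arrays, each labelled a biological replicate. The node draining the lung, the mediastinal lymph node (mLN), gave ILC2s on day 4 (n = 3 arrays) and in week 2 (n = 3) after intranasal IL-33, an alarmin cytokine that activates these cells. The lung gave ILC2s of naive mice (n = 2) and of treated mice on day 4 (n = 3), in week 2 (n = 3) and after 4 months (n = 2). The labels name C57BL/6J as the strain of the lung samples. The sources used here do not give age, sort gates or any pooling of animals. The p values therefore measure the spread between these arrays, and the small number of arrays limits the precision of every value.

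Cells build cholesterol from acetyl-CoA through mevalonate, squalene and lanosterol, and build fatty acids from the same precursor through malonyl-CoA. The transcription factors SREBP2 (gene Srebf2) and SREBP1 (Srebf1) switch these genes on when membrane sterol is low: SCAP escorts them out of the endoplasmic reticulum, and INSIG1 and INSIG2 hold them back when sterol is plentiful. In lymphocytes the pathways are known for supplying membrane during growth and division.

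Sterol genes are known to carry SREBP sites beside NF-Y and GC boxes close to their start. The 250 bases before the annotated start are shown for 3 members that rose in the lung at day 4 and for Mvk, a member that did not pass there. Hmgcs1 lies at chr13:119690101-119690350 on the plus strand, Cyp51 at chr5:4104698-4104947 on the minus strand, Insig1 at chr5:28071162-28071411 on the plus strand and Mvk at chr5:114444019-114444268 on the plus strand (RefSeq, GRCm38.p6). Each is written 5′ to 3′ along its gene's strand, and capitals mark a match on either strand to the sterol regulatory element TCACNCCAC, the E-box CACGTG, the NF-Y box CCAAT or the GC box GGGCGG.
Hmgcs1: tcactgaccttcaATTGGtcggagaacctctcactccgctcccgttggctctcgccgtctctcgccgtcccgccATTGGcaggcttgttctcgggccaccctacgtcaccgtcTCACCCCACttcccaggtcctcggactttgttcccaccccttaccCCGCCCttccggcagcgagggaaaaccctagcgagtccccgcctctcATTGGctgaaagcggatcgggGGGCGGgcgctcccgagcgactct
Cyp51: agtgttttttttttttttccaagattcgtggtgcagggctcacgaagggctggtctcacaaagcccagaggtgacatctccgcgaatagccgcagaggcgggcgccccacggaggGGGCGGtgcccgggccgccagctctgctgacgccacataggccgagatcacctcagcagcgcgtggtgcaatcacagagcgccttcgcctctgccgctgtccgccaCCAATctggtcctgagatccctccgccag
Insig1: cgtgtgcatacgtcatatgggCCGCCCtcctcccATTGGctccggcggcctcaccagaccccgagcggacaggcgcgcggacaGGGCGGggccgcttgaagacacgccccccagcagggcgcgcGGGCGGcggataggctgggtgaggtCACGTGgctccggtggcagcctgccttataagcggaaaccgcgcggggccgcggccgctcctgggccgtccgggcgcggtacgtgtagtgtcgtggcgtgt
Mvk: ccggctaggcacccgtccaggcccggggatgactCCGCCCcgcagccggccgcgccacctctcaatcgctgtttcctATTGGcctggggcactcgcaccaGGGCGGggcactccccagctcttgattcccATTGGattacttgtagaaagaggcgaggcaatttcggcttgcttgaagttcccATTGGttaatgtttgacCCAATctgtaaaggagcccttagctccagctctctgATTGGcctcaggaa
The Hmgcs1 window held 1 sterol regulatory element, 3 NF-Y boxes and 2 GC boxes. The Insig1 window held 1 E-box, 1 NF-Y box and 3 GC boxes, and the Cyp51 window 1 NF-Y box and 1 GC box. The Mvk window held 5 NF-Y boxes and 2 GC boxes, so these letters were present in a member that did not pass as well as in members that did. No match overlapped another in these windows. Over the 23 measured members with a window, 18 (78.3%) held the NF-Y letters and 19 (82.6%) the GC box letters, against 37.5% and 35.4% of 27025 genes with a window of the same length. The E-box letters were in 5 members (21.7%), Hsd17b7, Sc5d, Dhcr7, Scap and Insig1, against 6.86% of all genes. The exact sterol regulatory element letters TCACNCCAC were in Hmgcs1 alone among the members, against 1.22% of all genes. Sites that differ from these letters were not searched for, so a window without a match can still hold such a site. These are letter matches, not measured binding.

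Several properties of the arrays moved with the groups. As a list, ILC2 markers were bright on every array, with a mean log2 signal of 8.90 to 9.61 over 11 markers such as Gata3 and Il7r. Rora was lower, at 6.00 to 6.87, and the list also holds the cytokine genes Il5 and Il13. For 8 T cell markers the mean lay between 4.63 and 5.07 on the arrays after IL-33 and at 6.68 and 6.47 in the naive replicates. The mean of 16 macrophage markers was 5.78, 5.84 and 4.46 on the day 4 lung arrays and 4.28, 4.05 and 5.38 on the week 2 lung arrays, in replicate order. It was 4.88 and 4.15 on the naive arrays, 4.84 and 4.48 at 4 months and 3.64 to 3.98 on the mLN arrays. B cell, dendritic cell and alveolar type 2 markers had at most 2 called members in any comparison. Over all genes the correlation of replicates was 0.937 for naive and 0.947 for 4-month lung, against 0.977 or more within the other groups. The interquartile range of log2 signal was 2.05 to 2.47 on the naive and 4-month arrays and 2.85 to 3.07 on the other 12. The part that these differences had in the results was not tested, but results without the macrophage-rich arrays are given beside the main counts. In RNA from whole samples of cells, more cells of a type and more RNA per cell cannot be told apart.

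The heat map of all measured members showed most sterol enzymes and Insig1 brightest in the lung at day 4. The mean log2 signal of the 16 sterol enzymes in the node was 5.73 to 5.93 at day 4 and 5.70 to 5.81 at week 2. In the lung it was 5.58 and 5.60 on the naive arrays, 6.28 to 6.46 at day 4, 5.86 to 6.07 at week 2 and 5.14 and 5.62 at 4 months. All mLN arrays lay above the naive lung arrays and below the day 4 lung arrays.

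**Figure D1:**
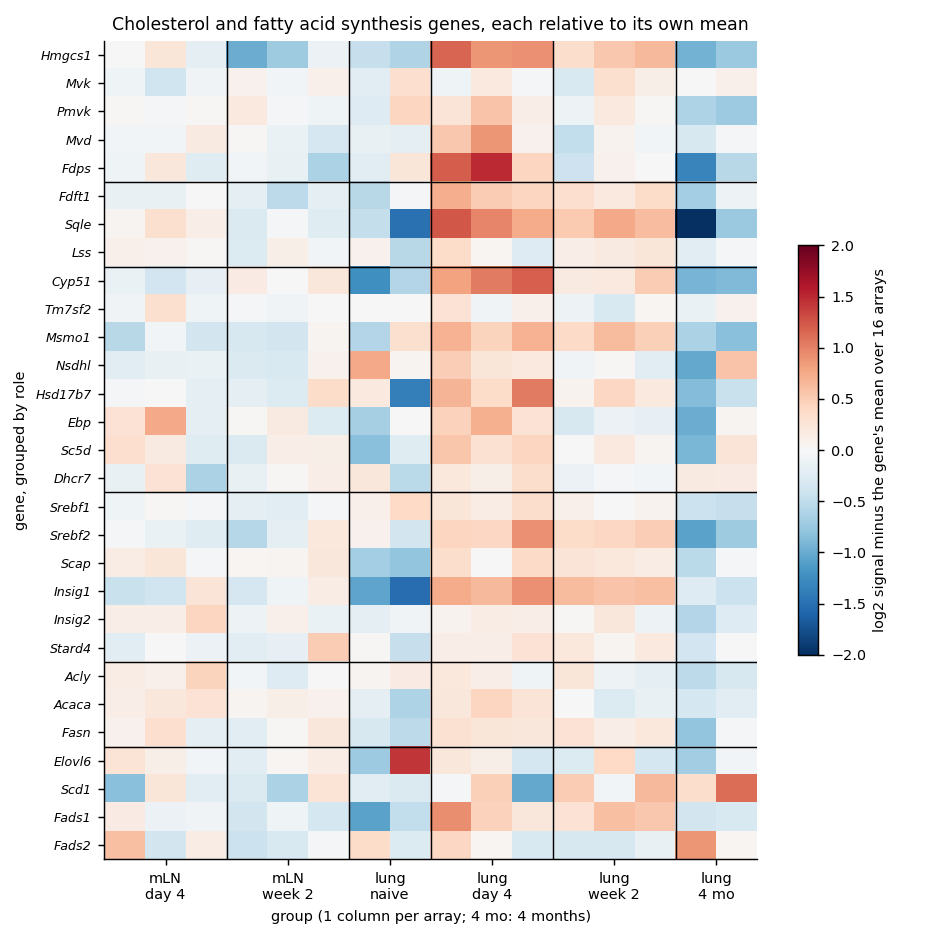
Log2 signal of the 29 measured members on each of the 16 arrays, minus the gene's own mean over all arrays (red higher, blue lower), with genes in rows by role and arrays in columns by group (4 mo stands for 4 months). The day 4 lung columns are red for most sterol enzymes and for Insig1, and the naive and 4-month lung columns are blue for Hmgcs1, Sqle, Cyp51 and Insig1.

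At day 4 after IL-33, 14 of the 29 members had higher levels in lung ILC2s than naive cells had and 0 had lower ones at a limma adjusted p under 0.05 over all genes, where 10.8% of all genes were called higher and 5.73% lower. The median change was 0.68 on the log2 scale over the members and -0.06 over all genes. By role, 8 of 16 sterol enzymes, 3 of 6 sterol sensing genes (Insig1, Scap and Srebf2) and 3 of 7 fatty acid enzymes (Fads1, Acaca and Fasn) were called higher. Groups did not overlap for 18 of the 29 members, against 44.5% of all genes. Among the 15467 genes left after dim ones were set aside, 16.9% were called higher, and 15 members were. With quantile normalization repeated, which evens out the signal range of the arrays, 7 members and 5.58% of all genes were called higher, with 4.48% lower. With array medians centred these shares were 12.7% and 3.43% of all genes. The member median was 0.34 with quantile normalization repeated, against -0.02 over all genes. With array medians centred it was 0.77, against 0.03 over all genes.

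Insig1, the retention protein of the SREBP complex and itself an SREBP target, stood at 8.16, 8.06 and 8.32 on the day 4 lung arrays, against 6.36 and 5.89 on the naive arrays. Every day 4 array lay well above both naive arrays, a change of 2.06 ± 0.23 (SE, limma adjusted p = 2.43e-05), or 4.16-fold. Sqle, the squalene epoxidase, stood at 7.38, 7.11 and 6.88 at day 4, against 5.66 and 4.64 in naive cells, where the replicates lay far apart. Its change was 1.97 ± 0.32 (adjusted p = 7.49e-04). Cyp51, the lanosterol demethylase, stood at 7.11, 7.33 and 7.49 at day 4, against 5.07 and 5.70 on the naive arrays, a change of 1.92 ± 0.20 (adjusted p = 1.90e-05) with no overlap. Hmgcs1, the cytosolic HMG-CoA synthase that makes the precursor of mevalonate, stood at 7.63, 7.34 and 7.38 at day 4, against 6.00 and 5.86 on the naive arrays, a change of 1.52 ± 0.23 (adjusted p = 3.97e-04).

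**Figure D2:**
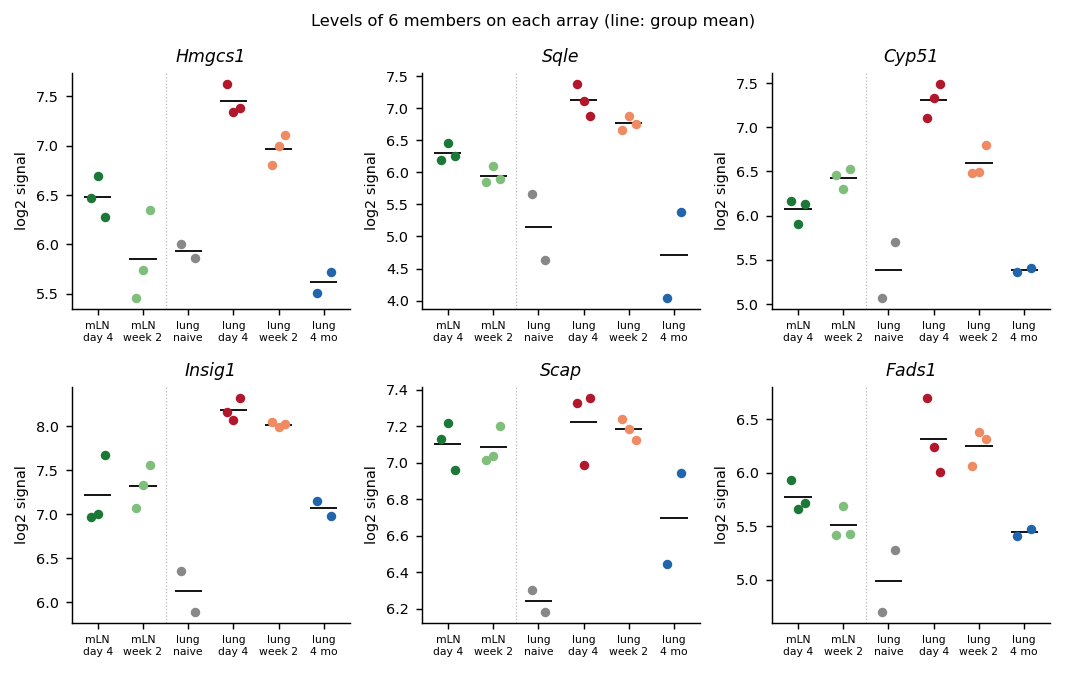
Log2 signal of 6 members on each array (points) with the group mean (line), by tissue and time; the dotted line parts the mLN groups from the lung groups and 4 mo stands for 4 months. For each of the 6, all day 4 and week 2 lung arrays lie above both naive arrays, and for Hmgcs1, Sqle, Cyp51 and Insig1 all day 4 lung arrays lie above all mLN arrays.

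The remaining steps moved unevenly. Of the mevalonate enzymes, Fdps, the farnesyl diphosphate synthase, stood at 6.85, 7.14 and 6.08 at day 4, against 5.42 and 5.89 in naive cells (1.03 ± 0.31, adjusted p = 0.0306). Mvd, the decarboxylase that forms the isoprene unit, missed the threshold at 0.67 ± 0.23 (adjusted p = 0.0565). Mvk, which phosphorylates mevalonate, and Pmvk, which phosphorylates phosphomevalonate, had changes of -0.02 ± 0.21 and 0.23 ± 0.21 and did not pass. Mvk averaged between 4.80 and 5.04 in all 6 groups.

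Around squalene, Fdft1, the synthase that makes it, rose by 0.84 ± 0.21 (adjusted p = 0.0124), while Lss, which closes the ring to lanosterol, stood at 0.28 ± 0.22 and did not pass. Of the 8 enzymes from lanosterol to cholesterol, 4 were called. Besides Cyp51 these were Hsd17b7, a 3-ketosteroid reductase of the pathway, at 1.28 ± 0.34 (adjusted p = 0.0171), Sc5d, the sterol C5 desaturase, at 0.97 ± 0.29 (adjusted p = 0.0309) and Msmo1, the C4 methyl oxidase, at 0.74 ± 0.24 (adjusted p = 0.0437). Hsd17b7 stood at 5.77, 5.45 and 6.14 at day 4, against 5.29 and 3.73 in naive cells, with the naive replicates further apart than the day 4 ones. The Msmo1 call was lost in 10 of the 16 fits that left out 1 array, with quantile normalization repeated and with array weights. Ebp, the sterol isomerase, had 0.82 ± 0.31 (adjusted p = 0.0765), and Dhcr7, Tm7sf2 and Nsdhl had changes of 0.39, 0.11 and -0.09 that did not pass.

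Among the regulators, Scap, the escort of SREBP, stood at 7.33, 6.99 and 7.36 at day 4, against 6.31 and 6.18 in naive cells, a change of 0.98 ± 0.19 (adjusted p = 0.00232). Srebf2 rose by 0.73 ± 0.23 (adjusted p = 0.0418), and Srebf1 did not pass (adjusted p = 0.992). The Srebf2 call was lost in 11 of the 16 fits that left out 1 array, with quantile normalization repeated and with array weights. Insig2 and the sterol carrier Stard4 had changes of 0.24 and 0.41 and did not pass. The gap between Insig1 and Insig2 was not tested.

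In the fatty acid branch, Fads1, the delta-5 desaturase of polyunsaturated fatty acids, stood at 6.70, 6.24 and 6.01 at day 4, against 4.70 and 5.28 in naive cells (a change of 1.33 ± 0.22, adjusted p = 8.96e-04). Acaca, the acetyl-CoA carboxylase, rose by 0.71 ± 0.17 (adjusted p = 0.0105) and Fasn, the fatty acid synthase, by 0.68 ± 0.22 (adjusted p = 0.0452). The Fasn call was lost in 10 of the 16 fits that left out 1 array, with quantile normalization repeated and with array weights. Acly, which makes cytosolic acetyl-CoA from citrate, had a change of -0.01 ± 0.19. Elovl6, an elongase, stood at 4.23 and 6.39 on the naive replicates, a gap wider than any difference between its group means, and did not pass. The stearoyl-CoA desaturase Scd1 and the delta-6 desaturase Fads2 were dim, with means over all arrays of 3.31 and 3.13, both under the 40th percentile of all values (3.73).

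Calls for Insig1, Cyp51, Hmgcs1 and Scap at day 4 were the 4 that remained without the macrophage-rich arrays, where 2.44% of all genes were called higher; these arrays were the first and second day 4 lung replicates and the third of week 2. Day 4 lung replicate 3, the lone day 4 lung array in that fit, stood at 8.32 for Insig1, 7.49 for Cyp51, 7.38 for Hmgcs1 and 6.88 for Sqle. Fdps stood at 6.08 there, against 6.85 and 7.14 on replicates 1 and 2. By list, the mevalonate enzymes averaged 5.92 there, against 6.23 and 6.41, and those of the steps to lanosterol 6.36, against 6.83 and 6.56. The enzymes from lanosterol to cholesterol averaged 6.48, against 6.47 and 6.34. Naive replicate 1 and 4-month replicate 1, with macrophage marker means of 4.88 and 4.84, were kept in the fit. Day 4 lung replicate 3 had a mean of 4.46, between those of the naive arrays. Of the 16 markers, 5 lay above both naive arrays and 9 below both. Among the 5, Chil3, a chitinase-like protein of alveolar macrophages, stood at 9.19, against 7.23 and 4.04 on the naive arrays. With array weights 7 members and 5.91% of all genes were called higher. Without day 4 lung replicate 1 or 2 the count was 8 or 9, and Insig1, Cyp51, Hmgcs1, Sqle, Scap and Fads1 passed in each of the 16 fits that left out 1 array. The mean of 14 proliferation markers was also higher, at 6.08 to 6.50 on the day 4 lung arrays, against 4.23 and 4.32 on the naive arrays, and 13 of the 14 were called; their part in the result was not tested.

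**Figure D3:**
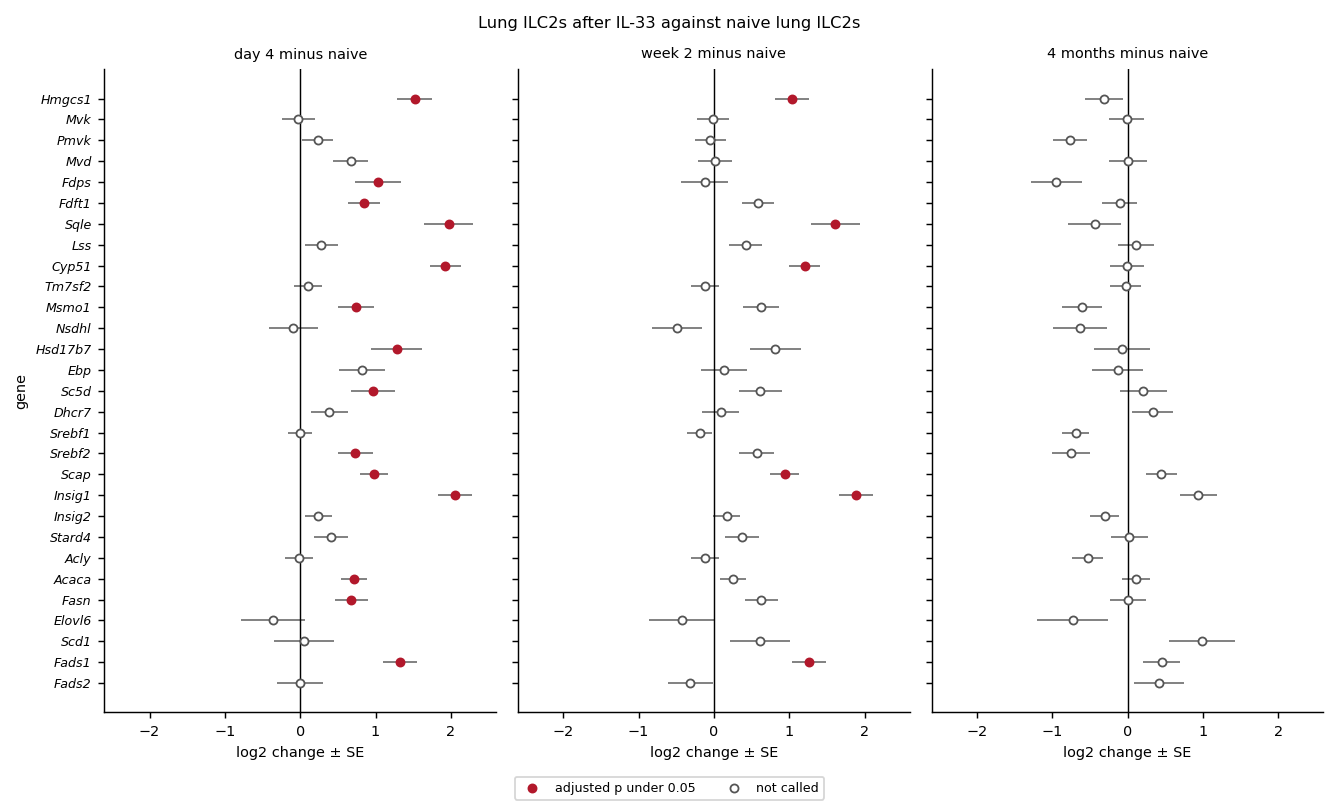
Log2 change ± SE of each member in lung ILC2s at day 4, week 2 and 4 months, each minus the same 2 naive lung arrays (filled points pass an adjusted p under 0.05). Filled points number 14 at day 4, 6 at week 2 and 0 at 4 months, and all lie right of 0.

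At week 2, 6 of the 29 members were above their naive level in lung ILC2s and 0 below it, against 6.75% of all genes called higher and 2.87% lower. The median was 0.37 over the members and -0.04 over all genes. With quantile normalization repeated 4 members (Cyp51, Scap, Insig1 and Fads1) and 2.90% of all genes were called higher, with 1.95% lower. The member median was then 0.19, against -0.004 over all genes. Without the macrophage-rich arrays 5 remained, all but Hmgcs1, where 2.25% of all genes were called higher. The comparison uses the same naive arrays as that at day 4. Insig1 stood at 8.04, 7.99 and 8.02 at week 2, against 6.36 and 5.89 in naive cells, a change of 1.89 ± 0.23 (limma adjusted p = 1.54e-04). The week 2 replicates lay close together and far above both naive arrays. Groups did not overlap for 15 of the 29 members, against 42.4% of all genes.

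Sqle stood at 6.65, 6.88 and 6.76 at week 2, a change of 1.61 ± 0.32 (adjusted p = 0.00577) that passed in every fit leaving out 1 array except without naive replicate 2 and was lost in a fit of these groups alone. Cyp51 stood at 6.48, 6.50 and 6.80 (1.21 ± 0.20, adjusted p = 0.00201) and Hmgcs1 at 6.80, 6.99 and 7.11 (1.04 ± 0.23, adjusted p = 0.0104). Hmgcs1 missed the threshold with array weights (adjusted p = 0.0591), and Cyp51 in a fit of these groups alone (adjusted p = 0.0552). Fads1 stood at 6.06, 6.38 and 6.31 (1.26 ± 0.22, adjusted p = 0.00265) and Scap at 7.24, 7.19 and 7.13 (0.94 ± 0.19, adjusted p = 0.00564). For each of these 6 genes the week 2 and naive arrays did not overlap. Fasn and Fdft1, at 0.63 and 0.59, did not pass at week 2 (adjusted p = 0.0818 and 0.0880), and Fdps had a change of -0.12 ± 0.31. The week 2 proliferation marker mean was 4.62 to 4.70, against 4.23 and 4.32 on the naive arrays.

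At 4 months, 0 of the 29 members were called against naive lung ILC2s by limma, against 1.97% of all genes. At an unadjusted p under 0.05, 3 members were higher (Insig1, Scap and Scd1) and 6 lower (Srebf1, Pmvk, Srebf2, Fdps, Acly and Msmo1), against 7.12% of all genes higher and 9.89% lower at that threshold. The member median was -0.03 and that of all genes -0.02. Groups did not overlap for 12 members, against 34.6% of all genes. Insig1 stood at 7.15 and 6.98 at 4 months, against 6.36 and 5.89 in naive cells, a difference of 0.94 ± 0.25 that missed the threshold (adjusted p = 0.0596). Both 4-month arrays were above both naive arrays and below all week 2 lung arrays. Srebf1 stood at 5.51 and 5.48 at 4 months, against 6.03 and 6.34 in naive cells, a difference of -0.69 ± 0.18 (adjusted p = 0.0559).

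Cyp51 at 5.36 and 5.41 and Hmgcs1 at 5.51 and 5.72 were near the naive arrays at 4 months. Their differences did not pass (adjusted p = 0.996 and 0.570). Sqle stood at 4.04 and 5.39 at 4 months, against 5.66 and 4.64 in naive cells, with replicates of each group more than 1 apart on the log2 scale. The count depended on the setting, as 3 members were called with quantile normalization repeated (Insig1 and Scap higher, Pmvk lower, against 2.04% and 2.11% of all genes), 2 without dim genes (Insig1 and Srebf1), 1 with limma's trend option, 0 without the macrophage-rich arrays and 5 without naive replicate 1, with the spread of the lone naive array taken from the other groups.

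Between week 2 and day 4 in the lung, 26 of the 29 members lay below 0 and 1 was called lower, against 1.39% of all genes called lower. The median was -0.23 over the members and 0.01 over all genes, and 12 members had groups that did not overlap, against 23.8% of all genes. Fdps stood at 5.23, 5.73 and 5.64 at week 2, against 6.85, 7.14 and 6.08 at day 4. The groups did not overlap, with a change of -1.16 ± 0.28 (limma adjusted p = 0.0397), or 2.23-fold lower. The call was lost in 8 of the 16 fits that left out 1 array, among them those without day 4 lung replicate 1 or 2 or any week 2 lung array, and without the macrophage-rich arrays, where the value was -0.60.

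Cyp51 at 6.48, 6.50 and 6.80 at week 2, against 7.11, 7.33 and 7.49 at day 4, did not overlap either and missed the threshold (-0.72 ± 0.18, adjusted p = 0.0598). Insig1, Scap, Sqle and Fads1 had differences of -0.16, -0.04, -0.36 and -0.06 and did not pass. Over the same interval 11 of 14 proliferation markers were called lower, with a median of -1.82. With array weights 5 members were called lower between these groups, and the share of all genes called lower was 4.08%.

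By 4 months, 10 of the 29 members were lower than at week 2 in the lung and 0 were higher, against 11.5% of all genes called lower and 4.85% higher. The median was -0.48 over the members and 0.02 over all genes. By role, 6 of 16 sterol enzymes, 3 of 6 sterol sensing genes and 1 of 7 fatty acid enzymes were called lower. Groups did not overlap for 20 of the 29 members, against 48.6% of all genes. Among the 15467 genes left without dim ones, 11 members and 18.6% of genes were called lower. With array medians centred the median of all genes lay at -0.10, and 15 members and 16.3% of all genes were called lower. With quantile normalization repeated the member median was -0.16, and 5 members and 2.75% of all genes were called lower, with 2.72% higher.

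Sqle stood at 4.04 and 5.39 at 4 months, against 6.65, 6.88 and 6.76 at week 2. Its change was -2.05 ± 0.32 (limma adjusted p = 0.00135), or 4.14-fold lower. Hmgcs1 stood at 5.51 and 5.72 at 4 months, against 6.80, 6.99 and 7.11 at week 2 (-1.35 ± 0.23, adjusted p = 0.00208). These groups did not overlap. Srebf2, the gene of SREBP2, stood at 6.24 and 6.60 at 4 months, against 7.67, 7.73 and 7.81 at week 2 (-1.32 ± 0.23, adjusted p = 0.00255). Msmo1 stood at 4.37 and 4.17 at 4 months, against 5.39, 5.63 and 5.48 at week 2 (-1.23 ± 0.24, adjusted p = 0.00447). Cyp51 fell by 1.21 ± 0.20 (adjusted p = 0.00206), with both 4-month arrays under every week 2 array. Hmgcs1, Sqle, Cyp51, Msmo1 and Srebf2 passed in each of the 16 fits that left out 1 array, and they were the 5 called under each of 4 alternatives: a log2 change of at least 1, quantile normalization repeated, array weights, and without the macrophage-rich arrays.

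The other calls were smaller and depended on the setting. Insig1 fell by 0.95 ± 0.23 (adjusted p = 0.0116), Fads1 by 0.81 ± 0.22 (adjusted p = 0.0225), Pmvk, the phosphomevalonate kinase, by 0.71 ± 0.21 (adjusted p = 0.0291), Fdft1 by 0.69 ± 0.21 (adjusted p = 0.0345) and Srebf1 by 0.50 ± 0.16 (adjusted p = 0.0454). Each of these 5 calls was lost with array weights. Scap, at 6.45 and 6.94 at 4 months, against 7.24, 7.19 and 7.13 at week 2, missed the threshold (-0.49 ± 0.19, adjusted p = 0.0820). Sc5d at 6.83 and 8.02, Nsdhl at 5.09 and 6.69 and Ebp at 5.28 and 6.33 had 4-month replicates far apart and did not pass. Leaving out 4-month replicate 1 gave 5 calls and leaving out 4-month replicate 2 gave 15.

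In the node, 0 of the 29 members were called between week 2 and day 4 by limma, against 1.71% of all genes, and 1 (Hmgcs1) had an unadjusted p under 0.05, against 9.04% of all genes. Hmgcs1 stood at 5.46, 5.74 and 6.34 at week 2, against 6.47, 6.69 and 6.28 at day 4, and the groups overlapped (-0.63 ± 0.21, adjusted p = 0.206). It was the 1 member called with array weights, where 1.82% of all genes were called lower. Cyp51 stood at 6.46, 6.30 and 6.52 at week 2, against 6.17, 5.91 and 6.13 at day 4, without overlap but short of the threshold (0.36 ± 0.18, adjusted p = 0.614). Over the same interval all 14 proliferation markers were called lower, with a median of -3.11, while the member median was -0.10 and 7 members had groups that did not overlap, against 16.2% of all genes.

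ILC2s of the node were lower than lung ILC2s in 4 of the 29 members at day 4 and higher in 0, against 1.35% of all genes called lower and 0.978% higher. The median was -0.32 over the members and 0.01 over all genes, and 24 of the 29 lay below 0. For 14 members the tissues did not overlap, against 18.6% of all genes. All 11 members with an unadjusted p under 0.05 were lower in the node, against 5.55% of all genes lower and 4.91% higher at that threshold. Cyp51 stood at 6.17, 5.91 and 6.13 in mLN cells, against 7.11, 7.33 and 7.49 in lung cells, a change of -1.24 ± 0.18 (limma adjusted p = 8.10e-04), or 2.36-fold lower. It was the 1 member of the 4 that passed in every fit leaving out 1 array, and the 1 called without the macrophage-rich arrays, where 0.591% of all genes were called lower.

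Hmgcs1 stood at 6.47, 6.69 and 6.28 in mLN cells, against 7.63, 7.34 and 7.38 in lung cells (-0.97 ± 0.21, adjusted p = 0.0153). Insig1 stood at 6.97, 7.01 and 7.67 in mLN cells, against 8.16, 8.06 and 8.32 in lung cells (-0.96 ± 0.20, adjusted p = 0.0144). Msmo1 stood at 4.44, 4.95 and 4.63 in mLN cells, against 5.70, 5.45 and 5.70 in lung cells (-0.94 ± 0.22, adjusted p = 0.0249). The tissues did not overlap for any of these genes, although each of the 3 calls was lost without at least 3 of the single arrays. Fdps, at -1.07 ± 0.28, just missed the threshold (adjusted p = 0.0521). Scap stood at 7.13, 7.22 and 6.96 in mLN cells, against 7.33, 6.99 and 7.36 in lung cells, and the tissues overlapped (-0.12 ± 0.17, adjusted p = 0.941). Of the fatty acid enzymes 0 of 7 were called.

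Proliferation and macrophage markers also differed between the tissues at day 4, in opposite directions. The proliferation mean was 7.49 to 8.21 on the mLN arrays, against 6.08 to 6.50 on the lung arrays, and 12 of 14 markers were called higher in the node. The macrophage mean was 3.64 to 3.98 on the mLN arrays, against 4.46 to 5.84 on the lung arrays, with 3 of 16 markers called lower. Day 4 lung replicate 3, the lung array kept in the fit without the macrophage-rich arrays, had 8 of the 16 markers above all day 4 mLN arrays and 2 below them, with Chil3 at 3.72 to 4.44 on the mLN arrays, against 9.19 on that array. The part of either marker list in the member differences was not tested further than by that fit.

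**Figure D4:**
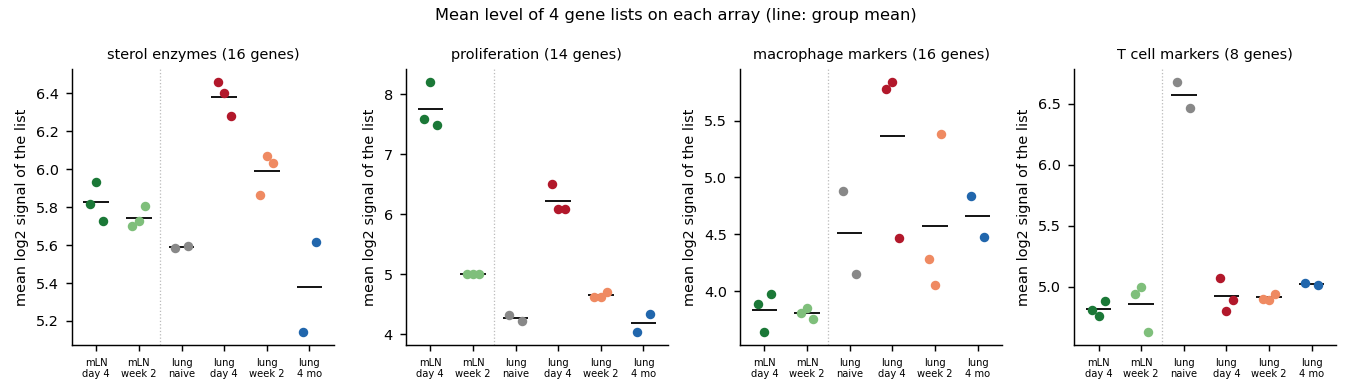
Mean log2 signal of 4 gene lists on each array (points) with the group mean (line), by tissue and time (4 mo stands for 4 months). The sterol enzymes are highest on the day 4 lung arrays, the proliferation markers on the day 4 mLN arrays, the macrophage markers on day 4 lung replicates 1 and 2, and the T cell markers on the naive arrays.

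At week 2, 1 of the 29 members was lower in mLN ILC2s than in lung ILC2s and 0 were higher, against 0.446% of all genes called lower and 0.334% higher. For 10 members the tissues did not overlap, against 19.9% of all genes. Hmgcs1 stood at 5.46, 5.74 and 6.34 in mLN cells, against 6.80, 6.99 and 7.11 in lung cells, a change of -1.12 ± 0.21 (limma adjusted p = 0.0116). The groups did not overlap, but the call was lost without week 2 lung replicate 2 or 3, without week 2 mLN replicate 1 or 2 and without the macrophage-rich arrays. At an unadjusted p under 0.05, 7 members were lower in the node and 0 higher, against 4.51% of all genes lower and 5.04% higher. Among them Sqle stood at 5.84, 6.11 and 5.90 in mLN cells, against 6.65, 6.88 and 6.76 in lung cells (-0.82 ± 0.29, adjusted p = 0.319), without overlap. Cyp51 stood at 6.46, 6.30 and 6.52 in mLN cells, against 6.48, 6.50 and 6.80 in lung cells, and the tissues overlapped (-0.17 ± 0.18, adjusted p = 0.863).

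**Figure D5:**
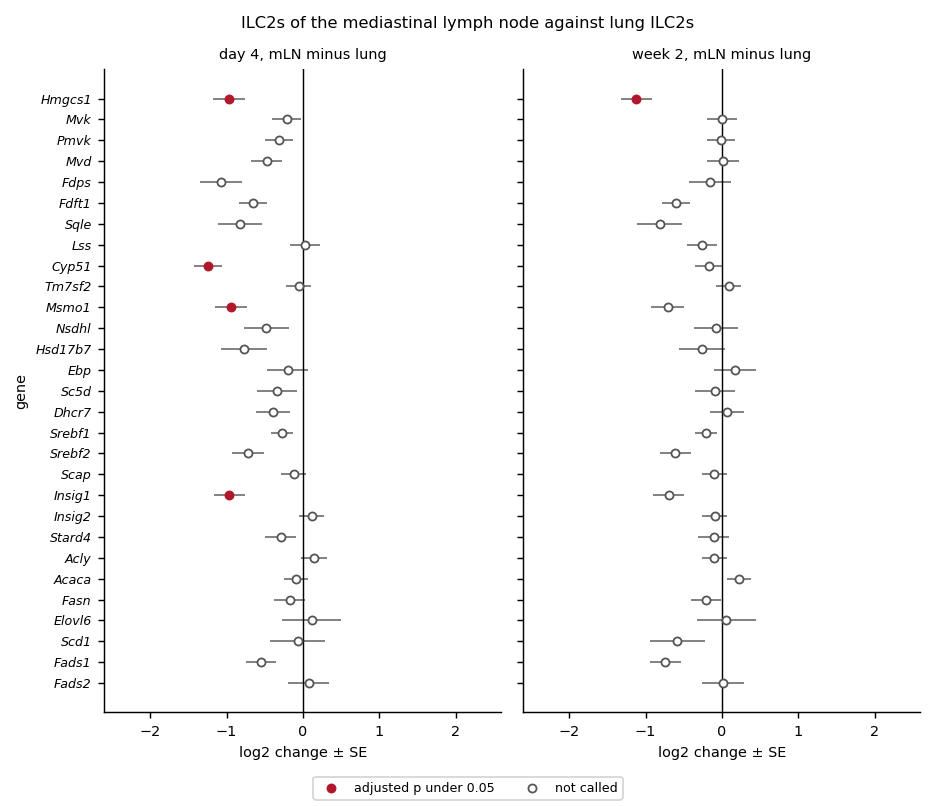
Log2 change ± SE of each member, mLN minus lung ILC2s, at day 4 and week 2 (filled points pass an adjusted p under 0.05). Filled points are Hmgcs1, Cyp51, Msmo1 and Insig1 at day 4 and Hmgcs1 at week 2, all left of 0.

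Whether the change between day 4 and week 2 differed between the tissues was tested as an interaction, and 0 of the 29 members were called by limma, against 0.18% of all genes. At an unadjusted p under 0.05 there were 2 members, Cyp51 and Fdps, a share close to the 6.38% of all genes. Cyp51 had a difference of changes of 1.07 ± 0.26, with the week 2 minus day 4 change at 0.36 in the node and -0.72 in the lung, and it missed the threshold after adjustment (adjusted p = 0.132). It was called under 3 alternatives: array weights, without the naive and 4-month arrays, and in a fit of the groups compared alone. Fdps had 0.91 ± 0.39 (adjusted p = 0.705).

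Other genes of the same pathways were counted from lists of 12 measured sterol genes, 9 of the sterol-sensing LXR receptors and sterol efflux, and 21 of fatty acid metabolism. At day 4 against naive lung, 5 of 12 sterol genes (41.7%) were higher and 0 lower, against 10.8% of all genes higher. These were Npc1 (1.29 ± 0.25) and Npc2 (0.94 ± 0.19), which export cholesterol from lysosomes, Erlin1 (1.08 ± 0.24) and Erlin2 (0.95 ± 0.23), endoplasmic reticulum proteins that restrain SREBP, and Pgrmc1 (0.76 ± 0.19), a sterol-associated membrane protein. Npc1, Erlin1, Erlin2 and Pgrmc1 were also higher at week 2, at 1.27, 1.30, 0.83 and 0.82. These were 4 of 12 (33.3%), against 6.75% of all genes. In the LXR list 1 of 9 passed at day 4, Mylip, a ligase that degrades the LDL receptor, which fell by 1.18 ± 0.20, and 0 of 9 passed at week 2. Of the fatty acid list, Idh1, a source of NADPH, Aacs, the acetoacetyl-CoA synthetase, and the acyl-CoA ligase Acsl4 rose at day 4 by 1.23, 0.98 and 0.93, while the carboxylase Acacb fell by 0.64. The 3 of 21 higher (14.3%) and 1 of 21 lower (4.76%) were near the 10.8% and 5.73% of all genes, and 0 of 21 passed at week 2.

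At 4 months against naive lung, 0 of 12 and 0 of 9 passed in the sterol and LXR lists. In the fatty acid list 1 of 21 passed, the acyl-CoA ligase Acsl5, which fell by 1.04 ± 0.18, where 1.97% of all genes were called. Against week 2, 4 of 12 sterol genes (33.3%) were lower at 4 months, where 11.5% of all genes were: Erlin1 (-1.21), Ggps1, the geranylgeranyl diphosphate synthase (-0.94), Pgrmc1 (-0.91) and Npc2 (-0.80). All 12 lay below 0, where the median of all genes was 0.02. With dim genes left out that median was -0.17, and 18.6% of genes were called lower. The list is given here for the planned fit only. The fatty acid list had 3 of 21 lower, the citrate carrier Slc25a1 (-1.10), Acsl5 (-0.80) and Acss2 (-0.70), a cytosolic acetyl-CoA synthetase. That share of 14.3% was near the 11.5% of all genes, and 0 of 9 LXR genes passed. Between week 2 and day 4, Npc2 was the 1 call in the lung (-0.83 ± 0.17) and Mylip the 1 call in the node (0.83 ± 0.18). Of all genes, 1.39% were called lower in the lung and 0.528% higher in the node. In mLN against lung cells at day 4, Npc2 (-0.92 ± 0.17), Idh1 (-1.21 ± 0.30) and Ch25h (-2.45 ± 0.58), the cholesterol 25-hydroxylase, were lower. They were 1 of 12, 1 of 21 and 1 of 9, against 1.35% of all genes called lower. At week 2 0 of 12, 0 of 9 and 0 of 21 passed limma, against 0.78% of all genes. At an unadjusted p under 0.05, 0 sterol genes passed, 2 LXR genes were higher and 3 fatty acid genes lower in the node. Of all genes, 5.04% were higher and 4.51% lower at that threshold. Ch25h stood at 6.51, 6.30 and 3.52 and Idh1 at 6.80, 6.58 and 5.28 on day 4 lung replicates 1, 2 and 3. Npc2 stood at 9.61, 9.63 and 9.66 on the same arrays, where the macrophage marker means were 5.78, 5.84 and 4.46. The part of macrophage content in these values was not tested.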

How the data were processed

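Total RNA of ILC2s, extracted with Trizol and labelled with a Nugen kit per the labels, was measured on 16 single-colour arrays. The authors deposited 1 log2 signal for each probe set on each array. The submitters' processing notes name Affymetrix Expression Console and RMA, which corrects background, quantile normalizes and summarises probes. Such values do not show how much RNA a cell holds in all. Their versions and the genome build were not given in the sources used here. Of 41345 probe sets, 23521 had 1 gene symbol in the platform annotation, 1814 several and 16010 none. Genes were named from those with 1 symbol, by the probe set with the highest mean, which left 22180 genes. Over these genes the interquartile range of log2 signal still ran from 2.05 to 3.07 across the arrays. The reason was not tested.

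Group means were fitted to all 16 arrays with limma 3.58.1 (R 4.3.3; no trend, robust option, filter, weights or replicate block), with 10 residual and 6.52 prior degrees of freedom, because 2 groups have 2 arrays. Tests were two-sided, with Benjamini-Hochberg adjustment over all genes of each of 9 comparisons, and a gene was called at an adjusted p under 0.05. The procedure was tested on simulated data. The members and lists were chosen with earlier results of these data known. All measured members could be named, with at most 4 called genes of each further pathway list per comparison, marker genes as checks, and the 8 genes most correlated with the mean of the sterol enzymes. Ch25h, Idh1 and Npc2 were looked at array by array after their values were seen. Marker lists covered macrophages, T cells, B cells, dendritic cells, alveolar type 2 cells, ILC2s and proliferation. Alternatives were array medians centred, quantile normalization repeated, dim genes left out (highest group mean under the 40th percentile), limma trend, robust and array weights, the mean over probe sets, only the groups compared, replicate blocks, a log2 change of at least 1, each array left out, and fits without the macrophage-rich arrays or without the naive and 4-month arrays. Promoter windows came from RefSeq (GRCm38.p6) and were found for 25 of the 32 listed genes. Plots used Python 3.11.15 with matplotlib 3.10.9.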

Additional observations from a re-analysis of the deposited data

How the results depend on the processing

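Of the 36 member changes called, none reversed under any alternative run, and all 36 stayed called with array medians centred, dim genes left out and limma's trend or robust option. All 36 also stayed called with the mean of probe sets. That setting is no check for most members, as Scap had 2 probe sets and every other measured member had 1, which left its values unchanged. With array weights 23 stayed called, with quantile normalization repeated 20, without the macrophage-rich arrays 15 and in fits of only the groups compared 21. For day 4 against naive lung the count of 14 members was 7 at a log2 change of at least 1, 7 with quantile normalization repeated, 7 with array weights, 4 without the macrophage-rich arrays, 6 with only the groups compared and 8 to 15 leaving out 1 array. For 4 months against naive lung the count of 0 was 3 with quantile normalization repeated, 2 with dim genes left out, 1 with limma's trend and 0 to 5 leaving out 1 array. For week 2 against day 4 in the lung the count of 1 was 0 with quantile normalization repeated, without the macrophage-rich arrays and with only the groups compared, 2 with dim genes left out and without the naive and 4-month arrays, 5 with array weights and 0 to 2 leaving out 1 array. For 4 months against week 2 the count of 10 was 5 at a log2 change of at least 1, with quantile normalization repeated, with array weights and without the macrophage-rich arrays, and 5 to 15 leaving out 1 array. For week 2 against day 4 in the node the count of 0 was 1 with array weights and 0 to 1 leaving out 1 array. For mLN against lung at day 4 the count of 4 was 1 at a log2 change of at least 1 and without the macrophage-rich arrays, 8 with array weights, 7 without the naive and 4-month arrays and 1 to 5 leaving out 1 array. For mLN against lung at week 2 the count of 1 was 7 with array weights, 0 without the macrophage-rich arrays, 2 without the naive and 4-month arrays or with only the groups compared, and 0 to 1 leaving out 1 array. For the interaction the count of 0 was 1 (Cyp51) with array weights, without the naive and 4-month arrays and with only the groups compared. The share of all genes called moved with these settings too. For day 4 against naive lung it was 16.6% as planned, 10.1% with quantile normalization repeated and 7.34% with array weights. For week 2 against day 4 in the lung it was 1.81% as planned and 6.35% with array weights. For mLN against lung at day 4 it was 2.33% as planned and 4.23% with array weights. At week 2 it was 0.78%, 3.12% with array weights and 0.334% without the macrophage-rich arrays. Where an alternative leaves out arrays it also has fewer degrees of freedom, and a lone array took its spread from the other groups; the cause of the other moves was not tested. Week 2 against naive lung gave 6 members in the fit as planned and 6 leaving out any 1 day 4, week 2 lung or mLN array. The count was 4 with quantile normalization repeated, 5 with array weights and 5 without the macrophage-rich arrays. Of all genes, 9.62% were called as planned and 4.86%, 3.28% and 3.08% in the same order of settings. For 4 months against week 2 the share was 16.4% as planned, 5.47% with quantile normalization repeated and 5.39% with array weights. For 4 months against naive lung it was 1.97% as planned, 4.15% with quantile normalization repeated and 3.77% with dim genes left out.

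The replicate numbers were checked for pairing. Arrays of lung and mLN with the same number had deviations that correlated at 0.0285 to 0.184 at day 4 and 0.012 to 0.0281 at week 2. At day 4, 4 of 6 arrays correlated best with their own number, and at week 2 5 of 6 did. These values are low, and whether samples with the same number share more than the number was not settled by this check. With the replicate number as a block over all groups, 31 of the 36 calls stayed, and 1 member (Insig1) was called for 4 months against naive lung. With the block within each time point, the mLN against lung counts were 7 at day 4 and 3 at week 2. The share of all genes called with that block is not given here, so these counts stand without it. Over all genes the count called ranged from 688 to 3763 for day 4 against naive lung (3677 as planned), 525 to 2255 for week 2 (2134), 0 to 921 for 4 months (436) and 1073 to 4305 for 4 months against week 2 (3633).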

Other observations

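Among genes outside all lists, the 8 whose values followed the mean of the 16 sterol enzymes most closely over the 16 arrays were Epb41l2 (Pearson r = 0.945), Padi2 (0.943), Slc15a3 (0.942), Dstn (0.941), Rnf208 (0.937), Lamp2 (0.936), Otulinl (0.934) and Ctnnb1 (0.925). Slc15a3, a lysosomal peptide and histidine transporter, averaged 3.60 in naive, 7.45 in day 4, 5.80 in week 2 and 4.01 in 4-month lung cells. Lamp2, a lysosomal membrane protein, averaged 7.19, 8.37, 7.55 and 6.45 in the same order of groups. All 8 genes had their highest group mean in day 4 lung cells, so this pattern was not particular to Slc15a3 and Lamp2. The arrays share groups, signal range and macrophage content, so these are descriptions with no test.

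Against the mean of the other sterol enzymes, Hmgcs1 had r = 0.885 over the 16 arrays, while Mvk had r = 0.0229 and Pmvk r = 0.620.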
